A study of Homo sapiens with 6 samples.

Results

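The genes described here are 9 transcription factors of the primitive streak and of endoderm, namely EOMES, MIXL1, GSC, TBXT, LHX1, GATA4, GATA6, FOXA2 and HHEX. They were taken by name, and all 9 were found among the 59653 gene symbols of the count table. Of the 9, 5 had enough counts to be tested, 2 were detected at a few counts and not tested, and 2 were silent, defined as at most 3 counts in every library. The libraries come from PA1, a human cell line established from an ovarian teratocarcinoma and labelled wildtype, and all cells carried a transfected siRNA. The 2 groups of 3 libraries received either a control siRNA (a negative silencer) or siRNA against SOX2, for which the labels name 2 siRNAs without saying whether they were pooled. All cells spent 24 h in adherent culture after transfection and 72 h on plates coated with poly-HEMA, which prevents attachment, before RNA was taken. PA1 is 1 cell line, and the labels do not say whether the 3 libraries of a group come from separate cultures, so p-values measure the spread between these libraries, which may be technical. Where 3 values are given for a group, they stand in the order of replicates 1 to 3.

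As background, cells that leave the pluripotent state toward mesoderm or endoderm pass through the primitive streak, where Nodal and Wnt signals switch on the T-box factors EOMES and TBXT and the homeobox factor MIXL1. EOMES, with GSC and LHX1, is known for its role in the anterior streak, from which definitive endoderm arises, and endoderm is then marked by FOXA2, GATA4, GATA6 and HHEX. GATA4 and GATA6 are also factors of visceral endoderm and of heart mesoderm. SOX2 is a factor of pluripotent and neural cells.

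The 9 factors split into 3 kinds of behaviour after SOX2 siRNA. EOMES rose 7.55-fold, MIXL1 4.79-fold and GATA4 2.01-fold in mean CPM (counts per 1000000, on totals scaled by edgeR's TMM factors), and LHX1 rose 1.53-fold. GATA6 did not pass the test and varied several-fold among libraries of 1 group. TBXT and GSC were silent in both groups. HHEX had at most 5 counts in any library, and FOXA2 had 1 to 13. All 4 calls were upward. Among all 17592 genes tested by edgeR's quasi-likelihood test, 28.2% were called at a Benjamini-Hochberg adjusted p under 0.05, 14.8% higher and 13.4% lower. Calls higher by at least 2-fold in the fitted log2 fold change made up 1.57% of tested genes, and calls lower by at least 2-fold 1.59%. EOMES and MIXL1 were among the former, while GATA4, with a fitted log2 fold change of 0.9996, was just short. In 41.8% of tested genes no library of one group lay within the range of the other, and in 21.5% all SOX2 siRNA libraries were the higher ones.

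Total counts ranged from 25152313 to 32753184 per library, and 3 counts, the upper limit that a count of 0 allows and the most that a silent gene may have in a library, stood for 0.0908 to 0.120 CPM; such floors cover counting error only. SOX2 itself had 8093, 6647 and 7396 counts under control siRNA and 1564, 1776 and 1513 under SOX2 siRNA, leaving 20.5% of the control mean (log2 fold change -2.28, SE 0.0437; edgeR adjusted p = 5.97e-16). Of 11 pluripotent cell markers, 8 were tested: POU5F1, LIN28A and DNMT3B rose (log2 fold changes 0.17, 0.70 and 0.40), PRDM14 and NANOG fell (-2.08 and -1.91), and SALL4, DPPA4 and L1TD1 did not pass the test. Their levels differed widely, with POU5F1, LIN28A, SALL4 and DNMT3B at 99.6 CPM or more in both group means, DPPA4, L1TD1 and NANOG at 3.04 CPM or less, and TDGF1 and ZFP42 silent. Libraries of a group also differed in single genes, such as STC1 with 1421, 1168 and 614 counts under SOX2 siRNA, named after its values were seen. A wider difference between libraries lay in markers of gastric and intestinal epithelium. The sum over 22 such markers, a list written after the spread of GATA6 had been seen, was 60.9, 39.2 and 8.85 CPM under control siRNA and 61.55, 6.15 and 38.3 CPM under SOX2 siRNA, a 10-fold range that cuts across the groups. The results for the 9 factors and for the gene lists were therefore also computed with the log2 of this sum as a covariate, and without the libraries numbered 1, which had the highest sum in each group.

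**Figure D1:**
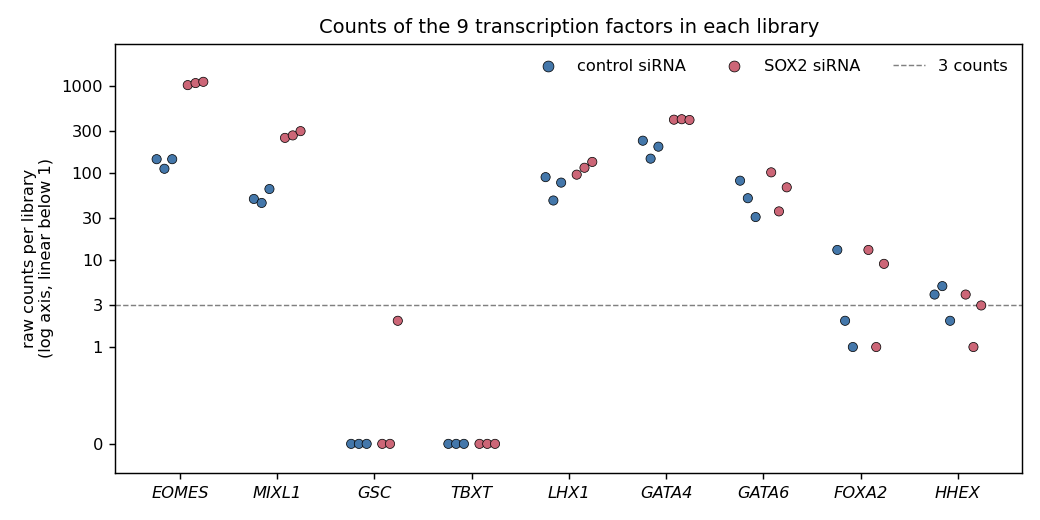
Raw counts (log axis, linear below 1) of the 9 factors in the 3 control siRNA (blue) and 3 SOX2 siRNA (red) libraries, 1 point per library, with the line of 3 counts dashed. EOMES, MIXL1 and GATA4 are higher in each SOX2 siRNA library than in any control library, TBXT is at 0 throughout, and GSC reaches 2 counts in 1 library.

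EOMES and TBXT are the T-box factors of the streak, and their levels differed sharply in these cells. EOMES lies on chromosome 3 (GRCh38, GENCODE 29 positions 27715949 to 27722711, minus strand, protein-coding) and had 143, 111 and 143 counts under control siRNA and 1012, 1068 and 1104 under SOX2 siRNA. The control libraries were close together and each SOX2 siRNA library was far above them. Expression went from 4.57 ± 0.330 to 34.5 ± 2.14 CPM (SD, n = 3), a log2 fold change of 2.92 (SE 0.0780, 95% interval 2.75 to 3.08; edgeR adjusted p = 2.01e-14). The coefficient of variation was 7.22% in control and 6.20% in SOX2 siRNA libraries, so the difference was larger than the spread between replicates. Exact permutation of the libraries, two-sided, gave p = 0.1 for EOMES, the smallest value that 3 against 3 allow.

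TBXT, which encodes brachyury, lies on chromosome 6 (166157656 to 166168700, minus strand, protein-coding) and had 0 counts in each of the 6 libraries. A count of 0 allows up to 0.0908 to 0.120 CPM per library, against 33 to 36.9 CPM of EOMES in the SOX2 siRNA libraries. TBXT was therefore not detectable at this depth in either group. Other T-box genes were measured too. TBX6, a factor of paraxial mesoderm, rose from 0.371 ± 0.0339 CPM under control siRNA to 1.15 ± 0.0306, and TBX1, a factor of pharyngeal tissue, from 2.05 ± 0.0755 to 3.87 ± 0.578 (CPM, SD, n = 3). Their adjusted p by edgeR was 1.93e-04 and 2.51e-04. MGA, TBX2, TBX15, TBX19 and TBX20 did not pass the test, with log2 fold changes of -0.07, 0.19, -0.13, 0.05 and -0.35. TBX5, TBX10, TBX18, TBX21 and TBX22 were silent, and TBX3, TBX4 and TBR1 had a few counts and were not tested.

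The homeobox factors of the streak showed the same contrast between a risen gene and a silent one. MIXL1, on chromosome 1 (226223618 to 226227054, plus strand, protein-coding), had 50, 45 and 65 counts under control siRNA and 251, 268 and 300 under SOX2 siRNA. The groups did not overlap, and the highest control library was well below the lowest SOX2 siRNA library. Expression went from 1.85 ± 0.370 to 8.87 ± 1.004 CPM (SD, n = 3), a log2 fold change of 2.26 (SE 0.144, 95% interval 1.96 to 2.57; edgeR adjusted p = 1.99e-09). GSC, the goosecoid gene of the organizer, on chromosome 14 (94768216 to 94770230, minus strand, protein-coding), had 0 counts in 5 libraries and 2 counts in SOX2 siRNA replicate 3. That is under the floor of 3 counts, so no fold is given for GSC and it was silent in both groups at this depth.

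LHX1 encodes a LIM-homeobox factor of the anterior streak and of kidney and is on chromosome 17 (36936785 to 36944612, plus strand, protein-coding). It had 89, 48 and 77 counts under control siRNA and 95, 114 and 133 under SOX2 siRNA. In CPM the groups did not overlap, but the lowest SOX2 siRNA library (3.14) stood only slightly above the highest control library (2.69). LHX1 rose from 2.42 ± 0.441 to 3.71 ± 0.671 CPM (SD, n = 3), a log2 fold change of 0.60 (SE 0.173, 95% interval 0.236 to 0.968; edgeR adjusted p = 0.0148). The call rests on few libraries: leaving out control replicate 2 gave 0.47 on the log2 scale (edgeR adjusted p = 0.0869), and leaving out SOX2 siRNA replicate 3 gave 0.45 (edgeR adjusted p = 0.0816). Exons of LHX1 overlap those of AC243773.1 on the opposite strand, which had 0 counts in all 6 libraries. The divergent transcript LHX1-DT had counts of 38, 23 and 27 under control siRNA and 45, 52 and 35 under SOX2 siRNA (log2 fold change 0.50, edgeR adjusted p = 0.111).

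**Figure D2:**
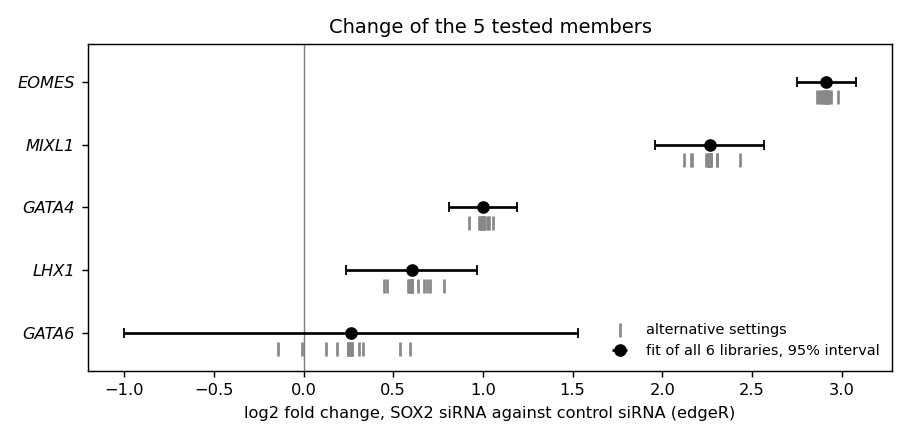
Log2 fold changes (SOX2 siRNA against control siRNA, edgeR) of the 5 tested factors with 95% intervals (black) and the values under 16 alternative settings each (grey ticks). EOMES, MIXL1 and GATA4 keep to narrow ranges well above 0, LHX1 ranges from 0.45 to 0.78, and GATA6 lies on both sides of 0.

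The GATA factors, zinc-finger factors of endoderm and heart, gave 1 call between them, and the difference between their responses was not tested. GATA4, on chromosome 8 (11676959 to 11760002, plus strand, protein-coding), had 233, 145 and 199 counts under control siRNA and 406, 411 and 403 under SOX2 siRNA. The SOX2 siRNA libraries were nearly equal and all above the control libraries. GATA4 rose from 6.57 ± 0.688 to 13.2 ± 0.438 CPM (SD, n = 3), a log2 fold change of 1.0 (SE 0.0888, 95% interval 0.812 to 1.19; edgeR adjusted p = 1.48e-07).

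GATA6, on chromosome 18 (22169443 to 22202528, plus strand, protein-coding), had 81, 51 and 31 counts under control siRNA and 101, 36 and 68 under SOX2 siRNA. The groups overlapped almost fully, with the lowest value of each group near 1.1 CPM (1.07 and 1.11) and the highest at 2.45 and 3.34 CPM. The means were 1.85 ± 0.708 CPM under control siRNA against 2.24 ± 1.12 CPM under SOX2 siRNA (SD, n = 3), a log2 fold change of 0.26 (SE 0.499; edgeR adjusted p = 0.763). The 95% interval of the ratio ran from 0.498 to 2.90, which includes the 2.01-fold ratio of GATA4 as well as no change. The sign turned without control replicate 3 (-0.01) and without SOX2 siRNA replicate 1 (-0.15). Of the other GATA genes, GATA2 and GATA3 did not pass the test (log2 fold changes 0.12 and 0.16) and GATA1 was silent. GATA5 had 15, 10 and 5 counts under control siRNA and 4, 4 and 1 under SOX2 siRNA and was outside the filter; without the filter its log2 fold change was -1.77 (edgeR adjusted p = 0.0184).

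The spread of GATA6 went with the epithelium markers. About their group means, counts of GATA6 had a chi-square per degree of freedom of 12.8, where 1 is counting noise; the median over 3031 tested genes with mean counts from 30 to 150 was 1.29, and 96.9% of them were below GATA6. EOMES, MIXL1, LHX1 and GATA4 had values of 2.37, 2.87, 2.89 and 1.20. The libraries with the most GATA6 were SOX2 siRNA replicate 1 and control replicate 1, and the 2 with the least were control replicate 3 and SOX2 siRNA replicate 2, which are also the extremes of the epithelium marker sum. Of the 22 markers, 15 were highest in CPM in replicate 1 of both groups. REG4, a secreted lectin of gut epithelium, had 335, 130 and 44 counts under control siRNA and 297, 28 and 169 under SOX2 siRNA. EPCAM, an epithelial adhesion molecule, had 107, 20 and 63 counts under SOX2 siRNA and was likewise highest in replicate 1 under control siRNA. Among these 22 genes, 12 were tested and 0 were called by edgeR, 0 at an unadjusted p under 0.05 and 0 by DESeq2 or limma-voom, with a median log2 fold change of -0.085; GKN1 was at 0 in all libraries and TFF2 and KRT20 were silent. With the marker sum as a covariate the log2 fold change of GATA6 was 0.31, its standard error went from 0.499 to 0.182, and it was still not called (edgeR adjusted p = 0.238). The marker list was written after the spread of GATA6 had been seen, so the smaller standard error is a description. The part of these markers in the GATA6 counts was not tested.

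By distance between deviations of log2 CPM from the group means over the 6 libraries, the genes nearest GATA6 were TSHZ3, its own antisense transcript GATA6-AS1, MUC3A, TSPAN7, ARL4AP2, PROX1, HNF4A and UPK1B. This list was made after the values were seen and is a description. GATA6-AS1 had 13, 8 and 3 counts under control siRNA and 20, 6 and 12 under SOX2 siRNA. Its exons overlap those of GATA6 on the opposite strand, and whether counting used strand is not given in the sources used here, so the 2 genes cannot be fully told apart. HNF4A, a nuclear receptor of liver and gut, had 16, 8 and 6 counts under control siRNA and 22, 6 and 16 under SOX2 siRNA, and PROX1, a factor of liver and lymphatic cells, had 34, 25 and 11 and then 43, 14 and 34.

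The 2 remaining endoderm factors had too few counts to be tested. FOXA2, a forkhead factor that opens chromatin in endoderm, is on chromosome 20 (22581005 to 22585455, minus strand, protein-coding) and had 13, 2 and 1 counts under control siRNA and 13, 1 and 9 under SOX2 siRNA. The groups overlapped, and 3 libraries were at or under the floor of 3 counts. FOXA2 did not pass the filter on low counts. In a fit without that filter its log2 fold change was 0.49 (SE 0.551; edgeR adjusted p = 0.615). In control replicate 2 FOXA2 had 2 counts, though the epithelium marker sum there was 39.2 CPM. Otherwise, in CPM, FOXA2 was highest in replicate 1 of each group and lowest in control replicate 3 and SOX2 siRNA replicate 2, as were GATA6 and the epithelium markers. The non-coding gene LINC00261, which lies beside FOXA2 on chromosome 20 (22547671 to 22578642, minus strand), showed the pattern with more counts: 138, 66 and 15 under control siRNA and 133, 11 and 65 under SOX2 siRNA (log2 fold change -0.11, SE 1.11; edgeR adjusted p = 0.961). Exons of both FOXA2 and LINC00261 overlap those of AL121722.1 on the same strand, so their counts are uncertain to that extent.

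HHEX, a homeobox factor of anterior endoderm and liver, on chromosome 10 (92689951 to 92695646, plus strand, protein-coding), had 4, 5 and 2 counts under control siRNA and 4, 1 and 3 under SOX2 siRNA. These counts spread no more than counting noise (chi-square per degree of freedom 0.943). In the fit without a filter the log2 fold change of HHEX was -0.52 (SE 0.789; edgeR adjusted p = 0.732). No difference in HHEX was detectable at this depth.

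**Figure D3:**
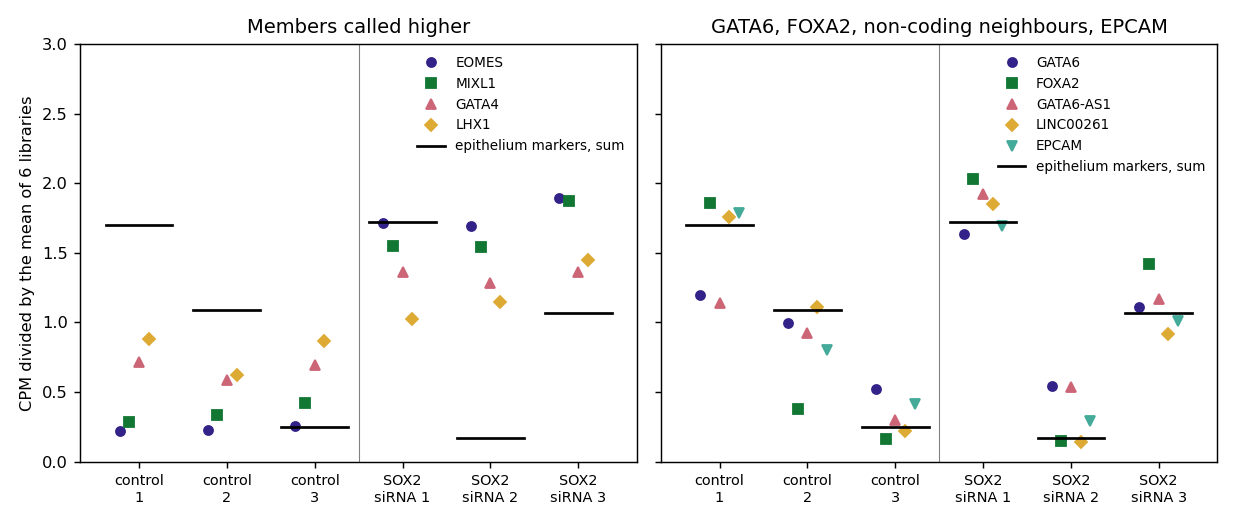
CPM of each gene divided by its mean over the 6 libraries, by library, for the 4 factors called higher (left) and for GATA6, FOXA2, GATA6-AS1, LINC00261 and EPCAM (right), with the summed epithelium markers as black bars. The left-hand genes part by group, while those on the right are lowest in control replicate 3 and SOX2 siRNA replicate 2, where the bars are lowest too. EPCAM is itself among the summed markers, and FOXA2 lies below the bar in control replicate 2.

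The 4 calls were also set beside the epithelium markers. The marker sum ranged from 8.85 to 60.9 CPM under control siRNA and from 6.15 to 61.55 CPM under SOX2 siRNA. Because it was so alike in the 2 groups, this sum as a covariate could shift the fold changes little. The part of these markers in the 4 calls was not tested. With the sum as a covariate the log2 fold changes of EOMES, MIXL1, GATA4 and LHX1 were 2.92, 2.26, 1.0 and 0.60, and all 4 were called. Without the libraries numbered 1 they were 2.89, 2.16, 1.04 and 0.78, again all called. The 2 libraries with the lowest marker sums, control replicate 3 and SOX2 siRNA replicate 2, gave ratios of 6.68 for EOMES, 3.69 for MIXL1, 1.85 for GATA4, 1.32 for LHX1 and 1.04 for GATA6, with no replicate check. In bulk RNA, more cells that express a gene and more RNA per cell cannot be told apart, which holds for each of these values.

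Levels were then compared between genes as CPM per kilobase of exon, with merged exon lengths from GENCODE 29. In control libraries the order was GATA4 (1.48), EOMES (1.249), MIXL1 (0.912), LHX1 (0.496), GATA6 (0.469), FOXA2 (0.0650), HHEX (0.0514), then GSC and TBXT at 0. GATA4 and EOMES overlapped in their libraries, as did LHX1 and GATA6, and FOXA2 and HHEX; the other neighbours with counts did not. After SOX2 siRNA the order of length-scaled levels was EOMES (9.43), MIXL1 (4.37), GATA4 (2.97), LHX1 (0.759), GATA6 (0.569), FOXA2 (0.0976), HHEX (0.0348), GSC (0.0176) and TBXT (0). EOMES and MIXL1 had moved above GATA4, and these 3 no longer overlapped with each other, while LHX1 and GATA6 still did.

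**Figure D4:**
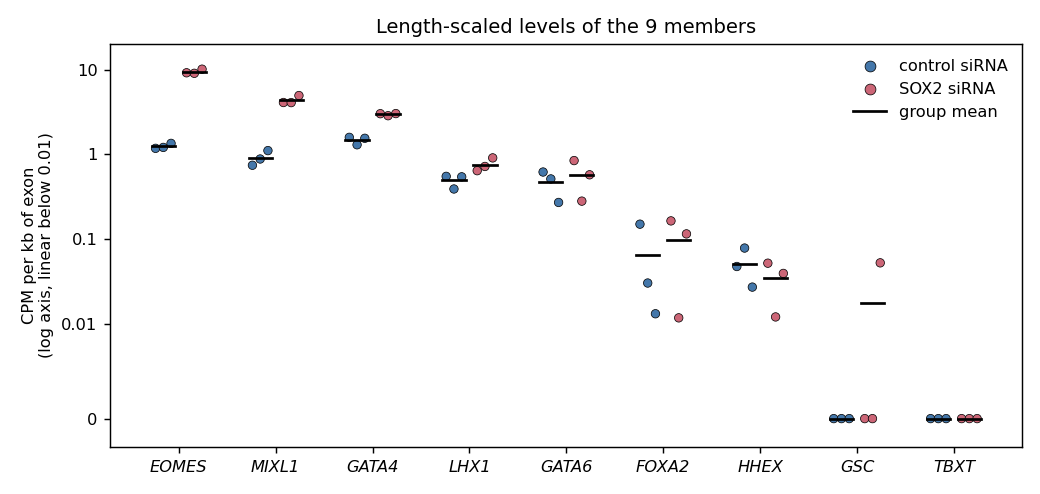
CPM per kilobase of merged exon (log axis, linear below 0.01) of the 9 factors, 1 point per library, with group means as black bars for control siRNA (blue) and SOX2 siRNA (red). EOMES goes from a mean of 1.249 to 9.43 and MIXL1 from 0.912 to 4.37, past GATA4, which goes from 1.48 to 2.97.

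The regions just before the transcription starts of MIXL1, which rose, and of TBXT, which was silent, are shown. Both are factors of the primitive streak. RefSeq start sites (GRCh38.p14) gave windows for 6 of the 9 factors, 7 windows in all. Windows were searched over the 250 bases before the start, and only bases outside every GENCODE 29 exon are printed. GATA4, FOXA2 and LHX1 were not matched, and the window of EOMES lies wholly in annotated exons and is not printed. The MIXL1 stretch is chr1:226223414-226223617, plus strand, and the TBXT stretches, for its 2 start sites, are chr6:166168701-166168905 and chr6:166167878-166168101, minus strand, each 5′ to 3′, with motif matches in capitals.
MIXL1: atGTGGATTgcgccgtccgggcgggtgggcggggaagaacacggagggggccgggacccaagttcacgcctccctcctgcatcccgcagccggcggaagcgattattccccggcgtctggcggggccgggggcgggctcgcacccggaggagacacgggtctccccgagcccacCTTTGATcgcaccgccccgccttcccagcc
TBXT, first start: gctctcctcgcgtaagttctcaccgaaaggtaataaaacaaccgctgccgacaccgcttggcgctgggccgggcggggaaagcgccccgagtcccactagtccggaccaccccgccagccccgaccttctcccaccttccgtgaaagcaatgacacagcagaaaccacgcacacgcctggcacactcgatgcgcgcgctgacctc
TBXT, second start: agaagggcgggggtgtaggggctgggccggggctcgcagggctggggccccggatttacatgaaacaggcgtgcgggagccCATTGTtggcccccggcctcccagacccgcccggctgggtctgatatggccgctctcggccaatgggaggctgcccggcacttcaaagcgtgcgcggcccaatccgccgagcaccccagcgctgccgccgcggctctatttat
Both strands were searched for the T-box motif TCACACC and for the SOX motif written ACAAAG or, in its other form, as ACAATG. TCF/LEF was represented by CTTTGAT, and FOXH1 by the form AATACAC and, as a further form, by AATCCAC. The GATA motif was AGATAA, the SMAD motif CAGACA, and the homeodomain motif TAATCC, and no motif contains another. The MIXL1 window held CTTTGAT 76 bases before the start and AATCCAC, as its reverse complement GTGGATT, 248 bases before it. CTTTGAT occurs in 2.26% and AATCCAC in 1.97% of the 35116 windows of the same length. The second TBXT window held ACAATG, as CATTGT, 169 bases before the start, a match found in 9.29% of windows. The windows of EOMES, GSC, HHEX and GATA6 and the first of TBXT held none of the 9 motifs. A match is a description of the letters and not evidence of binding. The windows of the silent genes, like those of the genes that rose, held more CpG dinucleotides than the median window: TBXT had 23 and 22 CpG dinucleotides in 250 bases and GSC 18, against 30 in MIXL1, 19 in EOMES and a median of 11 over all windows.

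Genes known beside these factors in streak and nascent mesoderm moved widely. Of 31 such genes, 21 were tested, 16 rose and 5 fell, with a median log2 fold change of 0.996 beside -0.00085 over all tested genes. The 16 and the median include EVX1 and MESP2, which passed the filter only through the SOX2 siRNA libraries, where they are high. With at least 10 counts required in every library, 13 in place of 16 were called higher, since EVX1, MESP2 and FGF8 are then not tested. Over all tested genes 14.8% were called higher and 13.4% lower, which is the background for this and the other lists. The lists were written with earlier results of these data known. APLNR, the apelin receptor of mesoderm, rose from 39.0 ± 1.41 to 209.3 ± 12.1 CPM and FOXC1, a forkhead factor of paraxial mesoderm, from 30.7 ± 0.603 to 109.1 ± 3.03 (CPM, SD, n = 3), with adjusted p by edgeR of 7.47e-16 and 4.03e-15. SNAI2, a repressor of epithelial genes, rose with a log2 fold change of 1.49. The homeobox gene NKX1-2 and the zinc-finger gene SP8, both known from the caudal embryo, fell with log2 fold changes of -1.08 and -1.75, and CDX2, a caudal-type homeobox gene, fell from 11.4 ± 0.638 to 3.94 ± 0.407 CPM (log2 fold change -1.54). Several genes chosen after their values were seen rose from near the floor: EVX1 had 4, 2 and 2 counts under control siRNA and 42, 41 and 33 under SOX2 siRNA, MESP2 had 1, 4 and 1 and then 11, 12 and 11, and FGF8 had 17, 10 and 8 and then 73, 80 and 84. Silent in both groups were 7 of the 31, among them MSGN1, EVX2 and CDX4. MESP1, a factor of early mesoderm, had 2, 3 and 4 counts under control siRNA and 5, 7 and 10 under SOX2 siRNA and was not tested.

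Endoderm genes other than the 9 factors showed no common direction. Of 22, 11 were tested, 3 rose and 3 fell, and the median log2 fold change was 0.000313, which is the value of FOXA3. Of the 5 not called, EPCAM, PROX1, HNF4A and STC1 had standard errors of 0.856, 0.488, 0.464 and 0.342. Their libraries spread widely within groups, so their changes are known only loosely. CER1, a secreted Nodal and BMP antagonist of anterior endoderm, rose by 2.51 on the log2 scale (edgeR adjusted p = 5.39e-13), from 3.59 ± 0.372 CPM under control siRNA to 20.4 ± 0.453 CPM (SD, n = 3), and PRDM1 and FLRT3 rose with log2 fold changes of 0.56 and 0.30. CLDN6, a tight junction gene, ONECUT1 and KLF5 fell, with -0.71, -1.27 and -0.34. Calls of lower endoderm genes went from 3 to 1 without control replicate 1, without control replicate 2 or without SOX2 siRNA replicate 2, and to 1 with DESeq2. SOX17, a defining factor of definitive endoderm, was silent, as were NKX2-1 and HOPX, and FOXA3 was at 5.54 ± 0.106 and 5.55 ± 0.414 CPM. Of 16 yolk sac and visceral endoderm markers, 10 were tested: DAB2 rose (0.45), CUBN fell (-1.06), and the summed level of the 16 ranged from 72.7 to 78.3 CPM in control and from 65.2 to 76.3 CPM in SOX2 siRNA libraries. Most of that sum came from APOC1 (means of 26.1 and 26.1 CPM), CUBN (21.0 and 10.1) and DAB2 (21.0 and 28.65). The fall of CUBN and the rise of DAB2 thus partly offset each other in it. TTR and APOA2 were silent, and ALB, with 68, 22 and 3 counts under control siRNA and 57, 2 and 28 under SOX2 siRNA, followed the epithelium markers. AFP, SPINK1 and FGB were, like ALB, lowest in CPM in control replicate 3 and SOX2 siRNA replicate 2 of their groups.

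**Figure D5:**
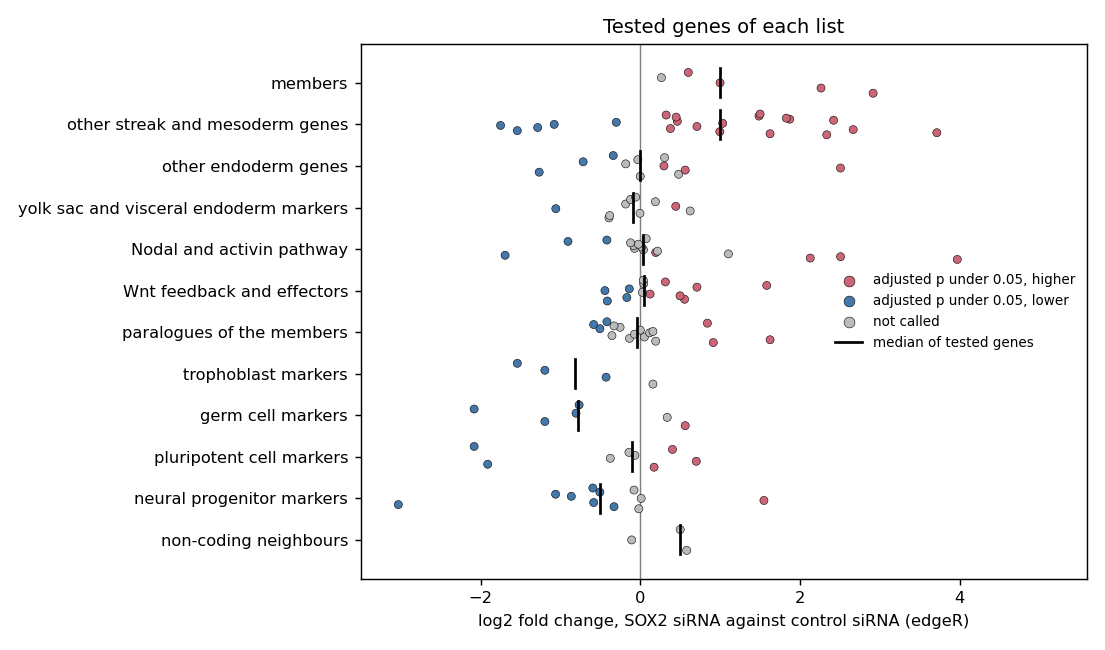
Log2 fold changes of the tested genes of each list (SOX2 siRNA against control siRNA, edgeR), red for called higher, blue for called lower and grey for not called, with list medians as black bars. The other streak and mesoderm genes have a median of 0.996, with calls in both directions, and the other endoderm genes lie on both sides of 0. That median includes EVX1 and MESP2, which passed the filter only through the SOX2 siRNA libraries.

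The signals upstream of EOMES and MIXL1 in the embryo were also examined. Of 23 Nodal and activin pathway genes, 16 were tested, 4 rose and 3 fell (median log2 fold change 0.03). The ligand gene NODAL was silent, with at most 3 counts in any library, as were the co-receptor gene TDGF1 and the activin subunit gene INHBB. The activin subunit gene INHBA, named after its values were seen, was not silent. It had 60, 43 and 58 counts under control siRNA and 96, 84 and 185 under SOX2 siRNA. INHBA did not pass the test (log2 fold change 1.10, edgeR adjusted p = 0.061). Of the other components, the co-receptor gene CFC1 rose from 2, 5 and 0 counts in control to 37, 42 and 44 under SOX2 siRNA, although its near-identical copy CFC1B makes its counts uncertain. The antagonists CER1 and LEFTY2 rose (2.51 and 2.13), the antagonist FST fell from 977.0 ± 14.3 to 302.4 ± 11.5 CPM (SD, n = 3), and the SMAD partner FOXH1 fell from 6.86 ± 0.582 to 3.67 ± 0.228 CPM. The transducers SMAD2, SMAD3 and SMAD4 did not pass the test, with log2 fold changes of 0.02, -0.08 and -0.02. With at least 10 counts required in every library, 2 in place of 4 genes of this list were called higher, since CFC1 and LEFTY2 are then not tested. DESeq2 and limma-voom each called 5 genes of the list higher.

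Wnt effectors and feedback genes were called in both directions, 6 higher and 4 lower of 13 tested (median 0.04). LEF1, SP5, CTNNB1 and TCF7L1 rose, with log2 fold changes of 0.56, 0.71, 0.32 and 0.50, and the negative feedback genes AXIN2 and RNF43 fell, with -0.41 and -0.44. Inhibitors of the pathway did not share a direction: DKK1, a secreted antagonist gene named after its values were seen, rose by 1.58 on the log2 scale, ZNRF3 fell, with -0.14, and NKD1 and NOTUM did not pass the test (0.03 and 0.04). The 4 lower calls became 2 without control replicate 1, control replicate 3 or SOX2 siRNA replicate 1, and with DESeq2. Exons of LEF1, RNF43, AXIN2, DKK1, FOXH1, CLDN6, NKX1-2 and EVX1 overlap those of other genes in GENCODE 29, which leaves their counts uncertain to that extent, and LEFTY2 overlaps another gene on its own strand and has a close paralogue in LEFTY1.

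EOMES is also a trophoblast factor, and SOX17 with PRDM1 marks germ cells, so markers of those cells were measured. Of 15 trophoblast markers 4 were tested, 0 rose (edgeR, also 0 at an unadjusted p under 0.05 and 0 by DESeq2 or limma-voom) and TFAP2C, CDX2 and TFAP2A fell, and 8 were silent, among them ELF5, CGA and CGB5. Of 11 germ cell markers 6 were tested: PRDM1 rose, PRDM14, TFAP2C, PDPN and DAZL fell, and SOX17, NANOS3, DPPA3 and DDX4 were silent. Neural progenitor markers had 1 call higher (POU3F2) and 7 lower of 11 tested, with a median of -0.51; SOX21 had the largest fall among the 11, at -3.03. Among 35 paralogues of the 9 factors, 16 were tested, 3 rose and 3 fell, and the median was -0.04. PITX1, a paired-like homeobox gene, rose by 0.84 on the log2 scale, whereas LHX2 and OTX2 fell, with log2 fold changes of -0.51 and -0.58.

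Finally, the genes whose profiles over the 6 libraries were nearest to that of EOMES were listed. Likeness was the root mean square distance of log2 CPM (prior count 2), centred on each gene's control mean, and it counts both direction and size. The 5 nearest were RIPPLY1 (distance 0.141), MARCHF4 (0.162), LMLN2 (0.236), FRZB (0.244) and KCNA5 (0.258), beside a median distance of 2.06 over all tested genes. RIPPLY1, a transcriptional co-repressor gene of somites, had 0 counts in the control libraries and 12, 17 and 14 under SOX2 siRNA, so its place depends on the prior count. FRZB, a secreted Wnt antagonist gene, had log2 fold change 3.21 and MARCHF4, a ubiquitin ligase gene, 2.81. With a prior count of 0.5, 2 of the 5 remained, MARCHF4 and FRZB.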

How the data were processed

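RNA of 6 libraries of PA1 cells, 3 per group, was extracted with Trizol and prepared with a KAPA mRNA HyperPrep kit, per the labels' protocols. The deposited table holds raw counts per gene symbol as whole numbers, 1 column per library, assigned by each library's description; group and replicate come from the titles. The submitters' processing notes name bcl2fastq 2.20.0, STAR 2.7.3a, Salmon 0.14.1, DESeq2 1.28.1 and GRCh38 p13, without roles; annotation, use of strand and any rounding of estimates are not given in the sources used here.

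Counts were analysed with R 4.3.3, edgeR 4.0.16, DESeq2 1.42.0 and limma 3.58.1; Python 3.11.15 was used with pandas 2.3.3 and matplotlib 3.10.9. Genes passed filterByExpr (minimum count 10), libraries were scaled by TMM (factors 0.991 to 1.01), and glmQLFit (robust=TRUE) and glmQLFTest gave p-values, Benjamini-Hochberg adjusted over 17592 genes, threshold 0.05. Intervals and standard errors come from that fit. Single values were compared by exact two-sided permutation. The 9 factors, the gene lists and the tests were chosen with earlier results of these data known. Genes named are the 9 factors, SOX2, in each list the 6 calls with the smallest p, or fewer, the silent genes of a list (all where at most 5, otherwise 3 examples), and the 5 profiles nearest EOMES; any other gene named was chosen after its values were seen. Some genes that this rule names are not reported here. Alternatives were other scalings, filters, tests, a replicate block and each library left out; the epithelium marker covariate and leaving out both libraries numbered 1 were added after seeing the data. The fit was tested on simulated data over 17321 genes: 38.8% of 1.25-fold, 71.4% of 1.5-fold, 78% of 2-fold and 98% of 4-fold changes were recovered, with 4.05% of calls false. Only 49 or 50 genes were changed at each fold, whereas 28.2% of genes were called in the data. The simulated libraries were independent, without the marker spread seen here. The 4.05% is therefore not the false share of the calls in the data. Replicate pairs differed by more than counting noise (chi-square per degree of freedom 2.87 to 6.43). No library was left out of the main analysis. GENCODE 29 gave positions, exon lengths and overlaps by symbol (217 of 220 symbols).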

Additional observations from a re-analysis of the deposited data

How the results depend on the processing

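EOMES, MIXL1 and GATA4 kept direction and call under all 16 alternatives, with log2 fold changes of 2.86 to 2.98, 2.12 to 2.43 and 0.92 to 1.05, and SOX2 ranged from -2.32 to -2.26. LHX1 ranged from 0.45 to 0.78 and was called in 14 of 16; leaving out 1 library gave 0.45 to 0.70, and the call was lost without control replicate 2 and without SOX2 siRNA replicate 3. GATA6 was called under none (adjusted p 0.238 to 0.991) with values between -0.15 and 0.59; it reversed on leaving out control replicate 3 (-0.01) or SOX2 siRNA replicate 1 (-0.15); the cause was not tested. Called genes ranged from 3760 to 5212 beside 4964, and those higher by at least 2-fold fell from 277 to 179 with at least 10 counts in every library, a filter that removes genes near 0 in 1 group. Libraries with the same number did not deviate together across genes as a whole (correlations 0.0868, -0.0377 and -0.0311), though 15 of the 22 epithelium markers were highest in replicate 1 of both groups. Among pairs with unlike numbers, the highest correlation was 0.155, for control replicate 3 with SOX2 siRNA replicate 2, the libraries with the lowest marker sums. The lowest was -0.12, for control replicate 1 with SOX2 siRNA replicate 2. These correlations cannot show whether libraries with the same number share a culture or batch, which was not tested. With the replicate block 5177 genes were called, 4829 of them shared, and it changed no call of the 5 tested factors. Higher genes made up 52.4% of calls, and 45.8% with upper-quartile scaling, which moved the median of all genes to -0.02. Of 384 list counts under alternatives, 373 stayed within 1.5 times; the 11 others were lower endoderm, Wnt and pluripotent genes and higher Nodal pathway genes. With a prior count of 0.5, 2 of the 5 genes nearest EOMES remained. Depth limits TBXT, GSC, HHEX and FOXA2, for which 3 counts are 0.0908 to 0.120 CPM.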
